A study of Drosophila melanogaster with 21 samples.

Results

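The JNK kinase Basket was blocked in scrib mutant tumours driven by activated Notch, and the RNA of these discs was compared with that of the same tumours without the block. The comparison rests on 6 of the 21 arrays of the series, the 3 labelled NotchACT bskDN overexpressing scrib mutant and the 3 labelled NotchACT overexpressing scrib mutant, chosen by these titles and called scrib-+NACT+bskDN and scrib-+NACT. All of the arrays measured whole mosaic eye-antennal discs of larvae of the third instar, in a w1118 background and dissected at day 5 after egg deposition. scrib-+NACT+bskDN discs carried clones that were mutant for scrib and expressed NotchICD, the active intracellular part of Notch, together with bskDN, a dominant-negative form of Basket. scrib-+NACT discs carried scrib mutant clones expressing NotchICD alone. The nearest other comparison was that of scrib-+RasACT+bskDN with scrib-+RasACT (RasV12, 3 arrays each), and 3 arrays of FRT control discs give the level without any of these changes. In the study the clones were made by MARCM, with ey-FLP1 and FRT82B to induce them and Tub-GAL4 to drive the UAS transgenes and mCD8-GFP inside them. The RNA therefore comes from clones, from the wild-type cells around them and from whatever tissue stayed attached to the discs, and a lower level can stand for fewer cells of a type or for less RNA per cell, which cannot be told apart. The number of discs pooled per array is not given for these genotypes in the sources used here. The labels say that samples were prepared in triplicate but not how far the 3 arrays of a group were separate collections, so the p-values measure the spread between these arrays, which may be technical.

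JNK is the last kinase of a stress pathway in which the TNF ligand Eiger and its receptors act through adaptor proteins and a chain of kinases on Basket, and Basket then activates the AP-1 transcription factors Jra (Jun) and Kayak (Fos). AP-1 induces the phosphatase Puckered, which inhibits JNK, and genes for secreted ligands, matrix enzymes and the cytoskeleton. Scribble keeps epithelial cells polarised, and in fly discs its loss activates JNK.

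The values are log2 signals after GCRMA, in which background correction leaves unexpressed probe sets at a floor near 2.2, so a change of 1 is a 2-fold change and a change against the floor depends on that correction. The bskDN transgene was visible: the main bsk probe set stood at 15.75, 15.82 and 15.80 log2 on the scrib-+NACT+bskDN arrays (replicates 1, A and B, the order used below), against 11.48, 11.60 and 11.57 on the scrib-+NACT arrays (replicates 1, 2 and A). The bsk probe sets were left out of the tests. The main scrib probe set, at 10.89, 10.91 and 10.98 log2 with the block, against 11.64, 11.16 and 11.18 without it, was not called (change -0.40, adjusted p = 0.42), and none of the 5 scrib probe sets was. What the scrib allele does to its RNA is not given in the labels. The scrib-+NACT+bskDN arrays had 7294 to 7358 tested probe sets at or above 5 log2, against 7495 to 7545 on the scrib-+NACT arrays. The mean signal of the poly-A spike controls was 6.197 to 6.91 log2 with the block, against 7.418 to 7.599 without it.

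The array scrib-+NACT replicate 1 stood apart from its group. Its correlation with replicates 2 and A over all tested probe sets was 0.9924 and 0.9925, and with scrib-+RasACT replicate 3 it was 0.9941. With FRT control replicate 1 the correlation was 0.9923, against 0.9851 and 0.9852 for scrib-+NACT replicates 2 and A with that control. Over 7093 probe sets with a mean of at least 6 log2, scrib-+NACT replicate 1 differed from replicates 2 and A by a median of 0.209 and 0.211. Replicates 2 and A differed from each other by 0.068. Among genes that were lower with the block, scrib-+NACT replicate 1 lay between the groups for most. It stood a median of 84.7% of the way from the scrib-+NACT+bskDN mean to the mean of replicates 2 and A. Counts are therefore also given without it.

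The block of JNK changed 802 of 11981 genes (6.69%) in scrib-+NACT discs, with more genes lower than higher. In limma, a call needed a change of more than 1 log2 and a p under 0.05 after Benjamini-Hochberg adjustment. Called lower were 580 genes (4.84% of those tested), and 222 were called higher (1.85%). The counts of the gene lists below stand beside these shares, and the lists were chosen with earlier results of these data known. Without scrib-+NACT replicate 1, 948 genes were called (7.91%), 676 lower (5.64%) and 272 higher (2.27%). Of 18766 probe sets 1006 were called (5.36%), 701 lower (3.74%) and 305 higher (1.63%), and a further quantile normalization gave 599 lower and 425 higher, so that the share of higher calls depends on scaling. The 3 arrays of a group all lay above the 3 of the other for 4375 genes (36.5%). The median change was 0.00 over all genes and 0.07 over the 6550 genes that reached 5 log2 on an array. Of the 580 genes called lower, 265 had a mean under 5 log2 in scrib-+NACT+bskDN and 473 had all 3 FRT control arrays above all 3 scrib-+NACT+bskDN arrays. Among the 222 called higher, 137 had all control arrays above all scrib-+NACT arrays.

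The 7 lists of markers of tissues other than the disc epithelium had lower mean levels on all 3 scrib-+NACT+bskDN arrays than on any scrib-+NACT array. Of 67 marker genes in these lists, 29 were called lower and 1 higher, beside 4.84% and 1.85% of all genes. The haemocyte list (8 of 13 lower, 0 higher, median change -3.42) had a mean level of 3.97 to 4.19 log2 with the block, against 6.33 to 7.33 without it and 5.79 to 6.76 in the control. With scrib-+NACT replicate 2 or A, or scrib-+NACT+bskDN replicate A or B, left out, 5 haemocyte genes were called lower. The muscle list (8 of 13 lower, 0 higher, median -2.82) stood at 3.52 to 3.72 log2, against 5.91 to 6.06 without the block and 5.25 to 5.96 in the control. The ring gland list (4 of 6 lower) stood at 7.19 to 7.28, against 8.29 to 9.58 and a control range of 10.16 to 11.24. The neuroblast and glia list (4 of 13 lower, 1 higher) stood at 6.19 to 6.37, against 7.39 to 7.52 and a control range of 7.42 to 7.58. The salivary gland list (3 of 8 lower) stood at 3.08 to 3.15, against 4.23 to 5.23 and a control range of 3.29 to 5.82. In scrib-+RasACT, which lacks the block, it was at 2.60 to 3.18. With all 21 arrays in the fit none of the salivary gland genes was called, and with array weights 5 were. In the fat body list 1 of 6 genes was lower, 4 with array weights, and 0 when any array but scrib-+NACT replicate 1 was left out. The list stood at no more than 4.19, against 5.50 to 7.69 and a control range of 4.68 to 5.96. In scrib-+RasACT, without the block, it was at 3.54 to 3.86. In the trachea and cuticle list 1 of 8 genes was lower, its call likewise ending without any array but scrib-+NACT replicate 1. The list's median change was -0.02. Its levels were 6.66 to 6.86, against 7.07 to 7.58, and overlapped the control range of 6.81 to 7.09.

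Many of these markers were dim with the block: 9 of 13 haemocyte and 10 of 13 muscle markers were under 5 log2 on all scrib-+NACT+bskDN arrays, against 3 and 4 on all scrib-+NACT arrays. PPO1, a prophenoloxidase of crystal cells, stood at 3.28, 2.76 and 3.34 log2 with the block, against 10.80, 10.80 and 10.73 without it (change -7.65 ± 0.77 SE, adjusted p = 0.00028). Hml, the plasmatocyte gene Hemolectin, stood at 3.19, 3.14 and 3.57, against 7.75, 8.98 and 8.90 (-5.24). Mlc1, a muscle myosin light chain, stood at 4.13, 4.04 and 3.91, against 9.86, 10.09 and 10.16 (-6.01 ± 0.37, adjusted p = 2e-05). In each of these genes the groups lay far apart, and the control arrays, at 7.84 to 9.44 for PPO1 and 8.24 to 10.13 for Mlc1, lay nearer to scrib-+NACT. Among ring gland genes, spok, sro and nvd of the ecdysone synthesis pathway changed by -2.13, -2.19 and -2.62, and Akh, the adipokinetic hormone, by -3.05, of which nvd was not called with the 6 Notch tumour arrays alone (adjusted p = 0.059). Akh stood at 6.38, 6.42 and 6.33 with the block, against 8.24, 10.07 and 9.97, with scrib-+NACT replicate 1 the lowest of its group. The part of attached or invading tissue in the changes described below was not tested.

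**Figure D1:**
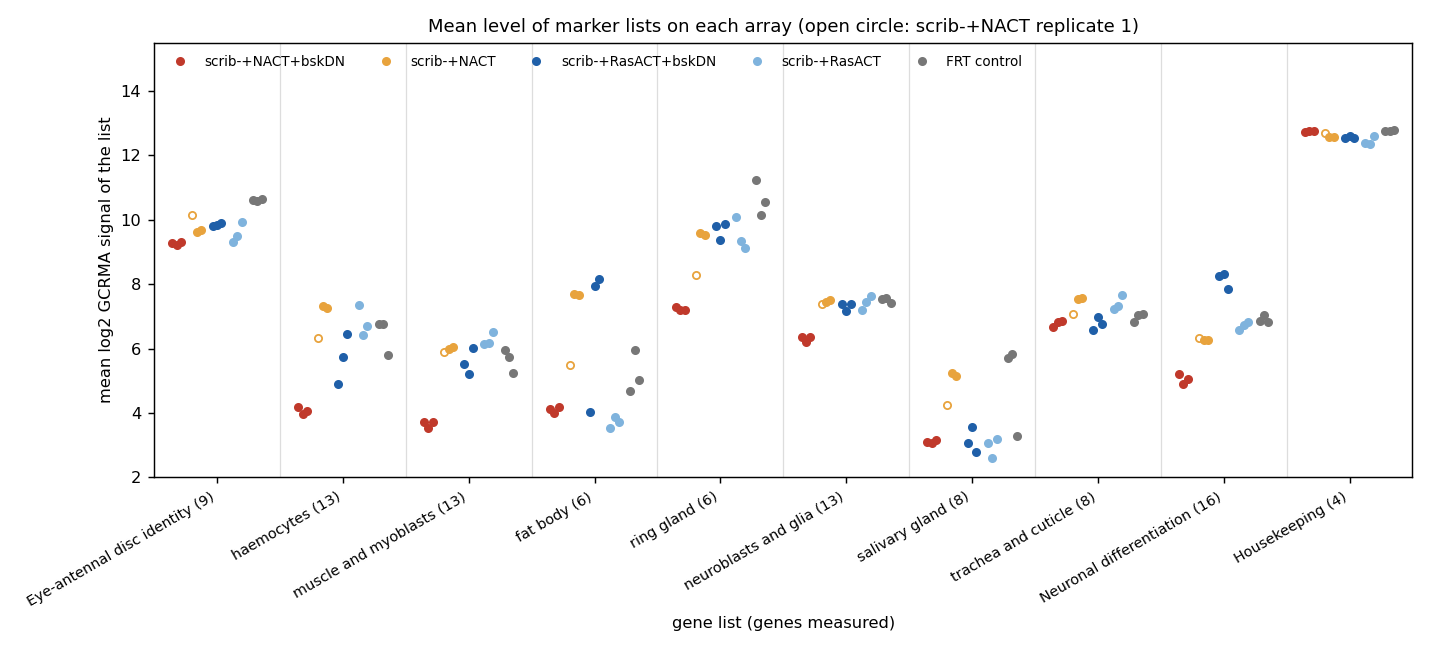
Mean log2 GCRMA signal of each marker list (vertical axis) on every array, by gene list (horizontal axis) and group; each point is 1 array and the open circle is scrib-+NACT replicate 1. The scrib-+NACT+bskDN arrays lie at 3.97 to 4.19 log2 for haemocyte markers and 3.52 to 3.72 for muscle markers, below all other arrays shown, while the housekeeping genes stand at 12.71 to 12.76, against 12.57 to 12.69 in scrib-+NACT.

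The eye-antennal disc genes used to check the tissue were all expressed. Their mean level was 9.20 to 9.31 log2 with the block, against 9.62 to 10.15 without it and 10.59 to 10.65 in the control, and none of the 9 was under 5 log2 on all arrays of a group. Of these, dac and Optix were called lower and none higher.

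Most measured genes of the JNK response fell. Of 13 measured members of a list of JNK-dependent genes, 9 were called lower and none higher, with a median change of -1.86, and without scrib-+NACT replicate 1 the counts were the same. A further 5 of the 18 genes listed were not analysed here. The list was chosen with earlier results of these data known, so its count is not independent of them. puc, the JNK phosphatase that JNK itself induces, stood at 8.95, 8.72 and 8.63 log2 with the block, against 10.64, 11.25 and 11.24 without it and 9.76, 10.63 and 10.50 in the control. All blocked arrays lay below those of both other groups, and the change was -2.28 ± 0.18 (SE, adjusted p = 8.9e-05). Ets21C, an ETS transcription factor that JNK induces on stress, was at the floor with the block (2.28, 2.26 and 2.63 log2), against 6.01, 6.61 and 6.66 without it (-4.04 ± 0.19, adjusted p = 5.4e-06). Pvf1, a ligand of the PDGF and VEGF receptor homologue Pvr, stood at 5.07, 5.01 and 5.10, against 9.14, 9.15 and 9.06 (-4.06 ± 0.23, adjusted p = 1.4e-05). Its control level of 7.31 to 7.85 lay between the groups and overlapped neither.

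Several other members lay lower with the block by 1 to 3 log2. scaf, a secreted serine protease homologue, stood at 10.15, 10.12 and 10.19 with the block, against 12.47, 12.32 and 12.21 (-2.18 ± 0.16, adjusted p = 5.3e-05). Atf3, a bZIP factor, changed by -2.72 and Timp, the inhibitor of matrix metalloproteinases, by -2.11. cher, the actin crosslinker filamin, changed by -1.67 and the nuclear receptor ftz-f1 by -1.86. Ilp8, the relaxin-like peptide with which growing or damaged discs delay metamorphosis, was at 9.22, 9.36 and 9.32 with the block, against 10.64, 10.55 and 10.54 without it and 6.76, 3.79 and 6.57 in the control. It was called lower (-1.28 ± 0.10) and lay above every control array, and the call ended with all 21 arrays in the fit (adjusted p = 0.19). upd1, a ligand of the JAK-STAT receptor, showed the same order at 8.04, 7.98 and 8.11, against 9.13, 8.79 and 8.74 and a control of 4.32 to 5.86, and its change of -0.84 (adjusted p = 0.018) did not reach the fold threshold. The other members that were not called were Gadd45 (-0.23), Irbp18 (-0.49) and chic (0.05), the last coding for profilin.

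**Figure D2:**
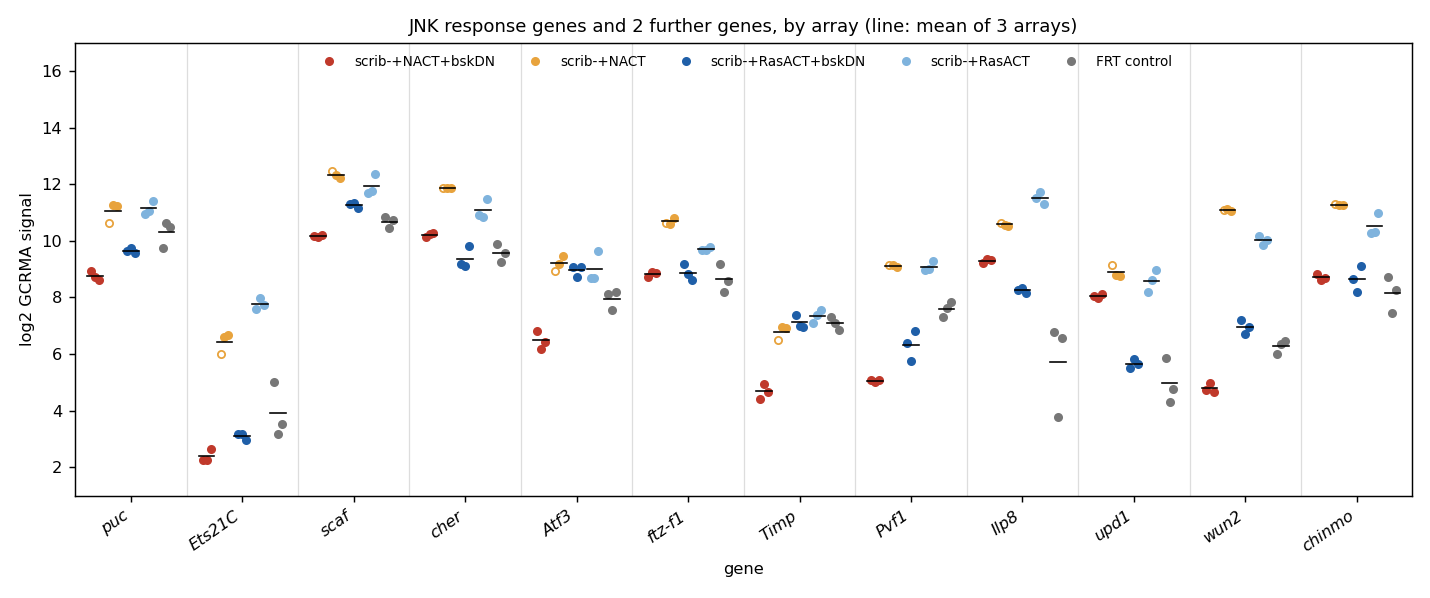
Log2 GCRMA signal (vertical axis) of 10 JNK response genes and of wun2 and chinmo (horizontal axis) on each array of 5 groups; points are arrays, lines the mean of 3, and the open circle is scrib-+NACT replicate 1. With the block, puc stood at 8.63 to 8.95 and Pvf1 at 5.01 to 5.10 log2, below all control arrays, while Ilp8 at 9.22 to 9.36 stayed above them.

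Of 16 measured genes of the pathway itself, 6 were called lower and none higher (median change -0.66), puc among them. egr, the TNF ligand Eiger, stood at 6.94, 6.52 and 6.91 log2 with the block, against 8.28, 8.55 and 8.53 without it and 9.44 to 9.79 in the control (-1.67 ± 0.14, adjusted p = 0.00011). Traf4, an adaptor below the receptor, stood at 8.36, 7.98 and 8.14, against 10.13, 10.09 and 10.19 (-1.98 ± 0.16, adjusted p = 0.0001). Both were lower with the block on every array. The AP-1 subunit genes kay (-1.81) and Jra (-1.08), and raw (-1.07), an inhibitor of JNK signalling, were also called, with less stability. kay stood at 10.56, 10.20 and 10.25 with the block, against 11.02, 12.64 and 12.77, so that its call rests on scrib-+NACT replicates 2 and A. The call ended when any array but scrib-+NACT replicate 1 was left out (adjusted p = 0.095 without replicate 2 of that group). Jra and raw dropped under the fold threshold without scrib-+NACT replicate 2 (-0.930 and -0.998) or replicate A (-0.94 and -0.98), and 3 members then remained called. Of the receptors, grnd changed by -0.84 and wgn by -0.90, and neither was called, although grnd passed without scrib-+NACT replicate 1 (-1.07). The kinases hep (-0.06), Mkk4 (-0.33), msn (-0.10), slpr (0.32) and wnd (-0.47) and the adaptors Traf6 (-0.27), Tab2 (-0.27) and POSH (-0.05) were not called.

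Genes of cell migration and guidance included some of the steepest falls. In this list 7 of 20 genes were called lower and 1 higher, with Pvf1 and cher, already counted in the JNK response, among the lower. wun2, a lipid phosphate phosphatase that guides migrating germ cells, stood at 4.72, 4.99 and 4.67 log2 with the block, against 11.10, 11.11 and 11.06 without it (-6.30 ± 0.14, adjusted p = 1.1e-07). Its control arrays were at 6.00, 6.36 and 6.46, far below scrib-+NACT. The related gene wun stood at 8.27, 8.05 and 8.07, against 10.78, 11.06 and 11.14 and a control of 8.31 to 8.81 (-2.86 ± 0.11, adjusted p = 2e-06). For both genes scrib-+NACT was above the control arrays and the blocked arrays were below them. The receptor Pvr changed by -1.96, and its second ligand gene Pvf2 by -2.45. Pax, the focal adhesion protein paxillin, changed by -1.77 (8.61 to 8.71 with the block, against 10.33 to 10.53). sli, the secreted guidance cue Slit, was called higher at 4.50, 4.87 and 4.26, against 3.10, 2.99 and 3.02 (1.50). Its mean over probe sets was not called, and a filter on values under 5 log2 left it out. The actin regulators chic (0.05) and tsr (-0.05) were not called.

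In the list of basement membrane and matrix protease genes, 9 of 19 measured were lower and none higher. Timp, already counted in the JNK response, was among the 9, and Mmp1 was listed but not analysed here. The collagen IV genes Col4a1 and vkg changed by -4.24 and -4.30, and SPARC, a collagen IV binding protein, by -3.26. Col4a1 stood at 3.95, 4.02 and 4.26 log2 with the block, against 7.22, 8.66 and 9.06 without it and 6.45 to 8.10 in the control. These genes, and Pxn (-4.21), are also made by haemocytes or fat body, whose markers were low on the same arrays, and all 3 blocked arrays lay below the control. Mmp2, a matrix metalloproteinase, changed by -1.43 (8.37, 8.62 and 8.55, against 10.04, 9.88 and 9.92). The perlecan gene trol changed by -1.15, and the integrin genes scb and if by -1.73 and -1.03, and if dropped under the fold threshold without scrib-+NACT replicate 1 (-0.97). The laminin genes LanA (-0.17), LanB1 (0.14) and LanB2 (0.13) were not called.

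Among JAK-STAT genes 3 of 11 were lower and none higher. chinmo, a BTB zinc finger gene that JAK-STAT signalling induces, stood at 8.84, 8.60 and 8.69 log2 with the block, against 11.29, 11.28 and 11.26 without it and 7.45 to 8.72 in the control (-2.56 ± 0.25, adjusted p = 0.00025). The blocked arrays overlapped the control. The ligand upd2 was called lower (-1.35), but scrib-+NACT replicate 1 was at 2.58 and replicates 2 and A at 4.13 and 3.94, and the call ended without any array but that first (adjusted p = 0.11 without replicate 2). zfh1 changed by -2.76. The receptor gene dome (0.03) and Stat92E (-0.18) were not called.

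Targets of Notch, which was active in both groups, split in direction. Of 23 pathway genes and targets, 3 were lower and 2 higher, with a median of 0.25. The Enhancer of split complex genes E(spl)m2-BFM and E(spl)malpha-BFM rose. The first stood at 13.22, 13.22 and 13.27 log2 with the block, against 11.82, 12.15 and 12.16 without it and 10.96 to 11.47 in the control (1.19 ± 0.10, adjusted p = 0.00011). The second changed by 1.57 (adjusted p = 3.5e-05). E(spl)m3-HLH (0.60), E(spl)m7-HLH (0.58) and E(spl)mbeta-HLH (0.65) were not called. Brd changed by -1.62 and E(spl)m4-BFM by -1.14, and E(spl)m4-BFM dropped under the fold threshold without scrib-+NACT replicate 1 (-0.88). nvy, which codes for a transcriptional corepressor, changed by -2.88.

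None of 16 measured Hippo-Yki genes was called (median 0.25), among them ex (0.23) and yki (0.21). A further 5 listed Hippo-Yki genes, Diap1, Myc, sd and ft among them, were not analysed here. None of 11 measured Ras-EGFR genes was called (median 0.11), and 5 more of that list were not analysed. In the Dpp, Wg and Hh list 1 of 14 was higher, Wnt6 (1.19), beside 1.85% of all genes, and 7 further genes listed were not analysed here. Of 18 measured cell cycle and DNA replication genes none was called, and the median change was 0.41, against 0.07 for all genes that reached 5 log2. A further 10 genes of that list, CycA, Cdk1, stg and E2f1 among them, were not analysed here. CycE changed by 0.73 and CycB by 0.64 (adjusted p = 0.035 and 0.0067), short of the fold threshold. None of 19 polarity and junction genes was called. Among 11 measured cell death genes only klu, a zinc finger gene, was higher (1.89), and its mean over probe sets (0.98) was not called. The listed death genes rpr, hid, Drice and Diap1 were not analysed here.

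Genes that pattern the eye and head moved in both directions. In the retinal determination list, 4 of 18 genes were lower and 2 higher, with dac and Optix of the tissue check among the lower. dac and Optix, transcription factors of the retinal network, changed by -1.23 and -1.30, and dan and danr by -1.13 and -1.01, the call of danr ending without scrib-+NACT replicate 1 (-0.87). dac stood at 10.71, 10.38 and 10.63 log2 with the block, against 12.03, 11.67 and 11.71 without it and 12.38 to 12.74 in the control. eyg, a Pax gene of the eye primordium, was called higher at 10.52, 10.69 and 10.67, against 9.05, 8.79 and 8.67 and a control of 8.12 to 8.53 (1.79 ± 0.38). Its call ended without scrib-+NACT replicate A (adjusted p = 0.052). pnr, a GATA factor of the dorsal head, changed by 1.33, while ey (0.47), toy (0.58), eya (-0.85) and so (-0.41) were not called. Among 20 antennal and leg genes 3 were higher (al 1.20, bab2 1.27 and sob 1.04) and none lower, and sob dropped under the fold threshold without scrib-+NACT replicate 1 (0.99).

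Genes of the morphogenetic furrow and of photoreceptor recruitment were mostly lower where they moved, with 5 of 16 lower and 1 higher. hry (hairy), a repressor expressed ahead of the furrow, stood at 10.66, 10.71 and 10.71 log2 with the block, against 13.18, 13.14 and 13.16 without it and 13.54 to 13.88 in the control (-2.47 ± 0.14, adjusted p = 1.5e-05). phyl, an adaptor needed for photoreceptor fate, changed by -1.98, ro by -2.06 (not called with the 6 Notch tumour arrays alone, adjusted p = 0.053), pros by -1.07 and sens by -1.35. The sens arrays with the block stood at 4.82 to 4.91, against 6.94, 5.87 and 5.88, and the call ended without scrib-+NACT replicate 1 (-0.99) or scrib-+NACT+bskDN replicate B (adjusted p = 0.052). pros also dropped under the fold threshold without scrib-+NACT replicate 1 (-0.94), and without either array 3 of the list were lower. ato, the gene that founds the R8 photoreceptor, was not called (-0.67). Sox102F was higher (2.27), with a mean under 5 log2 in every tumour group, so that a filter on low values left it out.

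In the neuronal list 7 of 16 genes were called lower and none higher, and the list mean was 4.91 to 5.20 log2 with the block, against 6.25 to 6.33 without it and 6.83 to 7.06 in the control. nrv3, a neuronal subunit of the sodium pump, stood at 4.86, 4.39 and 4.94, against 7.65, 8.18 and 8.06 (-3.23 ± 0.23, adjusted p = 4.2e-05). fne, an RNA-binding protein of the ELAV family, changed by -3.41, and cpx and Snap25, of the synaptic release machinery, by -2.76 and -4.18. elav itself changed by -0.78 and was not called. futsch changed by -2.15, with its call lost without scrib-+NACT replicate 1 or 2 or scrib-+NACT+bskDN replicate A or B (adjusted p = 0.074 without the first). The glial genes repo and moody changed by -1.88 and -3.39, on arrays whose neuroblast and glia list was lower as a whole, and dpn, a neuroblast and disc Hes gene that Notch induces, was the only marker called higher (12.69, 12.39 and 12.67, against 11.26, 11.26 and 11.39).

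In the list of genes that respond to the moulting hormone ecdysone, 7 of 21 were called higher with the block, 1 was lower and 13 were not called. The lower gene was ftz-f1, already counted in the JNK response. The median change was 0.11, and the counts were the same without scrib-+NACT replicate 1. Blimp-1, a transcription factor of the early response, stood at 8.23, 8.41 and 8.33 log2 with the block, against 3.96, 3.01 and 3.68 without it and 6.96, 9.31 and 8.47 in the control (4.77 ± 0.48, adjusted p = 0.00029). Hr4, a nuclear receptor, stood at 6.86, 6.65 and 6.83, against 2.85, 2.66 and 2.65 (4.06 ± 0.28, adjusted p = 3.9e-05), and the nuclear receptor gene Eip78C at 6.28, 6.35 and 6.23, against 3.31, 2.48 and 2.47 (3.53 ± 0.27, adjusted p = 7.3e-05). In these 3 genes the blocked arrays lay within the range of the control arrays, and every scrib-+NACT array was under 4 log2. The transporter gene E23 changed by 1.42.

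The ecdysone-inducible disc genes ImpE1, ImpE2 and ImpE3 were higher, and in them scrib-+NACT replicate 1 lay above the rest of its group. ImpE1 stood at 11.57, 11.51 and 11.68 log2 with the block, against 9.17, 5.96 and 5.68 without it (4.65 ± 0.81, adjusted p = 0.0052), and the call ended with the 6 Notch tumour arrays alone (adjusted p = 0.065). ImpE2 stood at 12.88, 12.93 and 12.95, against 11.15, 2.17 and 2.17, a change of 7.75 ± 2.10 (adjusted p = 0.038) that rests on scrib-+NACT replicates 2 and A. That call ended when any array but scrib-+NACT replicate 1 was left out (adjusted p = 0.14 without replicate 2), and without replicate 1 the change was 10.75. ImpE3 changed by 3.36. The receptor genes EcR (-0.90) and usp (0.02), the coactivator tai (-0.29) and br (0.52) were not called. The ring gland genes for ecdysone synthesis were lower on the same arrays, as given above.

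**Figure D3:**
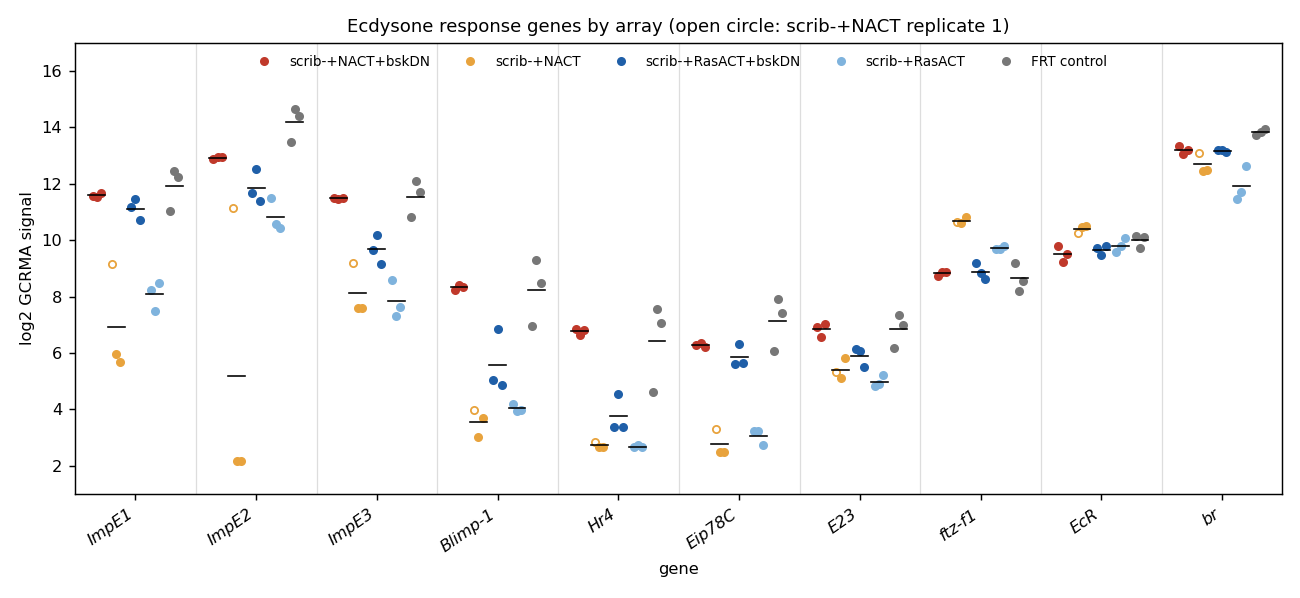
Log2 GCRMA signal (vertical axis) of 10 ecdysone response genes (horizontal axis) on each array of 5 groups; points are arrays, lines the mean of 3, and the open circle is scrib-+NACT replicate 1. Blimp-1 stands at 8.23 to 8.41 with the block, against 3.01 to 3.96 in scrib-+NACT, and ImpE2 is at 11.15 on scrib-+NACT replicate 1 and at 2.17 on the other arrays of that group.

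The largest falls included further genes outside these lists. Nplp2 and Nplp4, neuropeptide-like precursors, changed by -7.28 and -6.87, and Tdc1, a tyrosine decarboxylase, by -5.94. Tdc1 stood at 5.17, 4.94 and 5.39 log2 with the block, against 10.67, 11.32 and 11.33 without it and 9.01, 5.76 and 7.56 in the control. CG13215 stood at 2.38, 2.50 and 2.17, against 7.44, 8.48 and 8.58 (-5.81 ± 0.27, adjusted p = 4.5e-06), and its control arrays ran from 2.17 to 6.72. CG13403 stood at 4.47, 5.08 and 4.52, against 10.48, 11.03 and 10.92, and a control of 2.50 to 4.26 (-6.12 ± 0.29, adjusted p = 5.5e-06). CG13403 was thus high in scrib-+NACT alone of these 3 groups. CG13460 and CG12310 were the farthest apart between arrays of a group: CG13460 was at 2.62, 2.78 and 2.69 with the block, against 5.31, 12.96 and 12.86. Its change of -7.68 (adjusted p = 0.019) and that of CG12310 (-7.61, adjusted p = 0.017) were not called when any array but scrib-+NACT replicate 1 was left out (0.072 and 0.063 without replicate 2).

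The largest rises included genes that were on with the block and at the floor elsewhere. acs stood at 8.60, 8.92 and 8.85 log2, against 2.17 on each scrib-+NACT array, a change of 6.62 (adjusted p = 3.1e-10). CG18765 stood at 8.31, 7.999 and 8.17, against 2.17 on each (5.98), and CG13840 at 7.997, 8.06 and 8.02, against 2.19, 2.19 and 2.18 (5.84). Kr, the gap gene Krüppel that codes for a zinc finger repressor, stood at 7.06, 6.59 and 7.28, against 2.17 on each (4.80 ± 0.14, adjusted p = 6.8e-07). These 4 genes and CG31262 were at 5 log2 or more on all 3 scrib-+NACT+bskDN arrays and under 3 on all 18 other arrays of the series, scrib-+RasACT+bskDN included. CG31262 falls outside the rule for named genes, and the class was chosen after its values were seen. The reverse pattern, under 3 with the block and at 5 or more on all other arrays, held for 2 probe sets, those of RIC-3 and of the non-coding RNA pncr003:2L, which were likewise singled out by it. CG4576 (5.86), retinin (4.65) and Sox21b (4.53) also rose, with means of 8.84, 7.45 and 8.07 log2 with the block, and every scrib-+NACT array under 4.

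**Figure D4:**
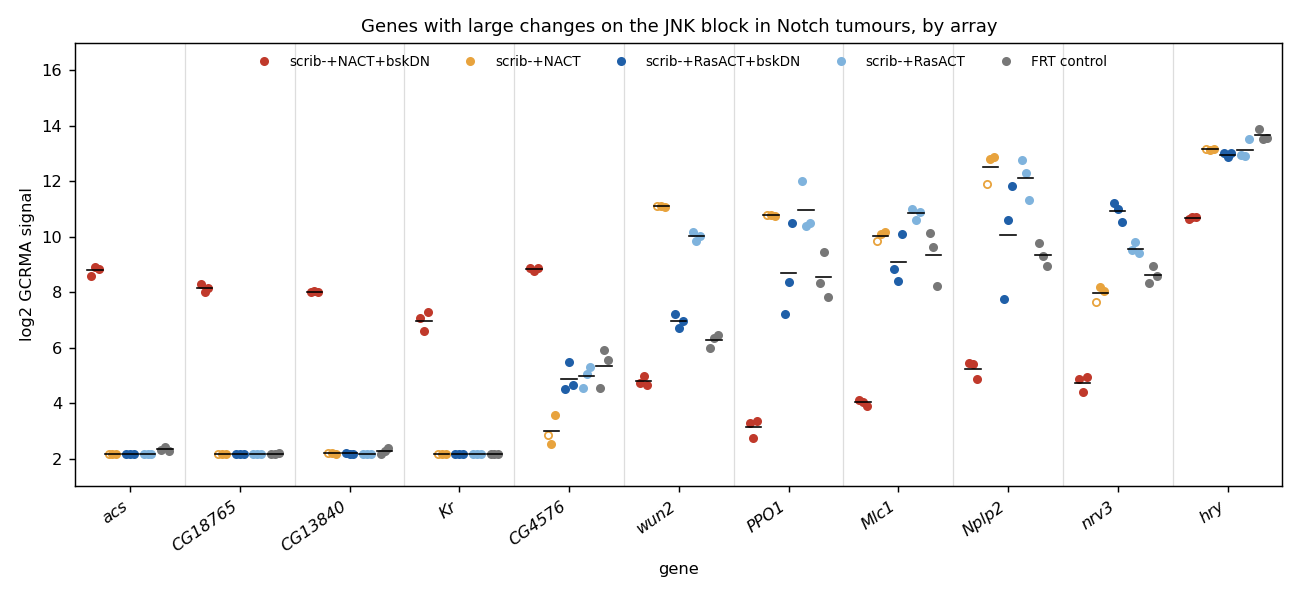
Log2 GCRMA signal (vertical axis) of 11 genes with large changes (horizontal axis) on each array of 5 groups; points are arrays, lines the mean of 3, and the open circle is scrib-+NACT replicate 1. acs, CG18765, CG13840 and Kr are at 6.59 log2 or more on the scrib-+NACT+bskDN arrays and near the floor on the others, while wun2, at 4.67 to 4.99, lies below its control level of 6.00 to 6.46.

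In the stress list 3 of 15 were lower, all glutathione transferases (GstD3 -1.49, GstE1 -1.52 and GstE6 -1.03), and 1 was higher, Hsp27 (1.23). GstE6 dropped under the fold threshold without scrib-+NACT replicate 2 (-0.97) or scrib-+NACT+bskDN replicate A (-0.96), and was not called with all 21 arrays in the fit (adjusted p = 0.11). In the immune list the NF-kappaB gene Rel (-1.11) and the Toll ligand gene spz (-2.09) were lower, 2 of 13, and the median change of the list was -0.80. Without scrib-+NACT replicate 1 there were 5 lower with a median of -0.98, and without replicate A there was 1, Rel having then changed by -0.995. In the glycolysis list 1 of 12 was higher, Glut1 (1.63, and 0.67 as the mean over its probe sets, which was not called). Its main probe set was at 4.65 to 4.81 log2, against 3.11 to 3.13. None of 11 tetraspanin, 17 Polycomb and Trithorax, 4 Hox, 4 sex composition and 4 housekeeping genes measured was called. Of these, 4 tetraspanin and 3 Hox genes never reached 5 log2 on a tumour array. A further 5 Polycomb and Trithorax, 4 Hox, 2 sex composition and 5 housekeeping genes listed were not analysed here. Without scrib-+NACT replicate 1, 1 sex composition gene was called higher.

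The response of Notch tumours to the block was then set beside that of Ras tumours, which share no array with it. In scrib-+RasACT, 625 genes were called (5.22%), 273 lower (2.28%) and 352 higher (2.94%) with the block. Of the genes lower in the Notch tumours 177 were also lower in the Ras tumours, 30.5% of the Notch and 64.8% of the Ras list, and 60 were higher there. Of those higher in the Notch tumours 66 were also higher in the Ras tumours, 29.7% of the Notch and 18.8% of the Ras list, and 3 were lower. Over the 6550 genes that reached 5 log2, the changes in the tumours had r = 0.315 (Pearson) and rho = 0.322 (Spearman), as a description across genes, which are not independent replicates. The test of the difference itself, the interaction, called 669 genes (5.58%), 490 of them lower (4.09%) and 179 higher (1.49%) in the Notch tumours relative to the Ras tumours, and without scrib-+NACT replicate 1 it called 807 (6.74%). On probe sets it called 847 (4.51%). Of the 669, 63 were called in opposite directions and 54 in the same direction.

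The JNK response was partly shared. puc changed by -1.50 in the Ras tumours, Ets21C by -4.67 and cher by -1.71, and their differences between the tumours were not called (adjusted p = 0.12, 0.26 and 1). The falls of wun2 (difference -3.24 ± 0.20 SE, adjusted p = 5.3e-05), Pvf1 (-1.30) and scaf (-1.51) were steeper in the Notch tumours. The downward changes of Ilp8 (difference 1.99) and upd1 (2.09) were larger in the Ras tumours. upd1 stood at 5.50, 5.83 and 5.65 log2 in scrib-+RasACT+bskDN, against 8.18, 8.62 and 8.97 in scrib-+RasACT, while in the Notch tumours it was at 7.98 to 8.11 with the block. Atf3 (Ras change -0.04, difference -2.68) and Timp (-0.22, difference -1.89) were called lower in the Notch tumours only, and their differences were called.

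In the pathway list 4 of 16 differences were called, beside 5.58% of all genes, and all 4 were lower in the Notch tumours. egr changed by -1.67 in the Notch tumours and 0.92 in the Ras tumours (difference -2.58 ± 0.20, adjusted p = 0.00017), Traf4 by -1.98 and 0.35 (difference -2.33), and wgn by -0.90 and 1.12 (difference -2.02). Of these changes, those of egr and Traf4 were called in the Notch tumours only and that of wgn in the Ras tumours only. In the neuronal list 10 of 16 genes were higher and none lower with the block in the Ras tumours, and 11 differences were called, all lower in the Notch tumours. cpx stood at 8.37, 8.38 and 7.51 log2 in scrib-+RasACT+bskDN, against 5.30, 5.62 and 5.40 in scrib-+RasACT (2.64, difference -5.41 ± 0.37, adjusted p = 9.4e-05). Among the ecdysone genes Eip78C rose in both (2.77 in the Ras tumours, difference not called), and Hr4 rose more in the Notch tumours (1.08 in the Ras tumours, difference 2.98). Blimp-1 changed by 1.54 in the Ras tumours, which was not called (adjusted p = 0.092), with a difference of 3.23. hry changed by -0.17 in the Ras tumours (difference -2.30). The haemocyte list averaged 4.89 to 6.46 log2 in scrib-+RasACT+bskDN, against 6.42 to 7.35 in scrib-+RasACT, with 1 gene called lower. The fat body list went the other way in the Ras tumours, with 0 genes called. It averaged 4.03, 7.95 and 8.15 in scrib-+RasACT+bskDN (replicates 1, 2 and 3), against 3.54 to 3.86 in scrib-+RasACT. The part of attached tissue in these differences was not tested.

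**Figure D5:**
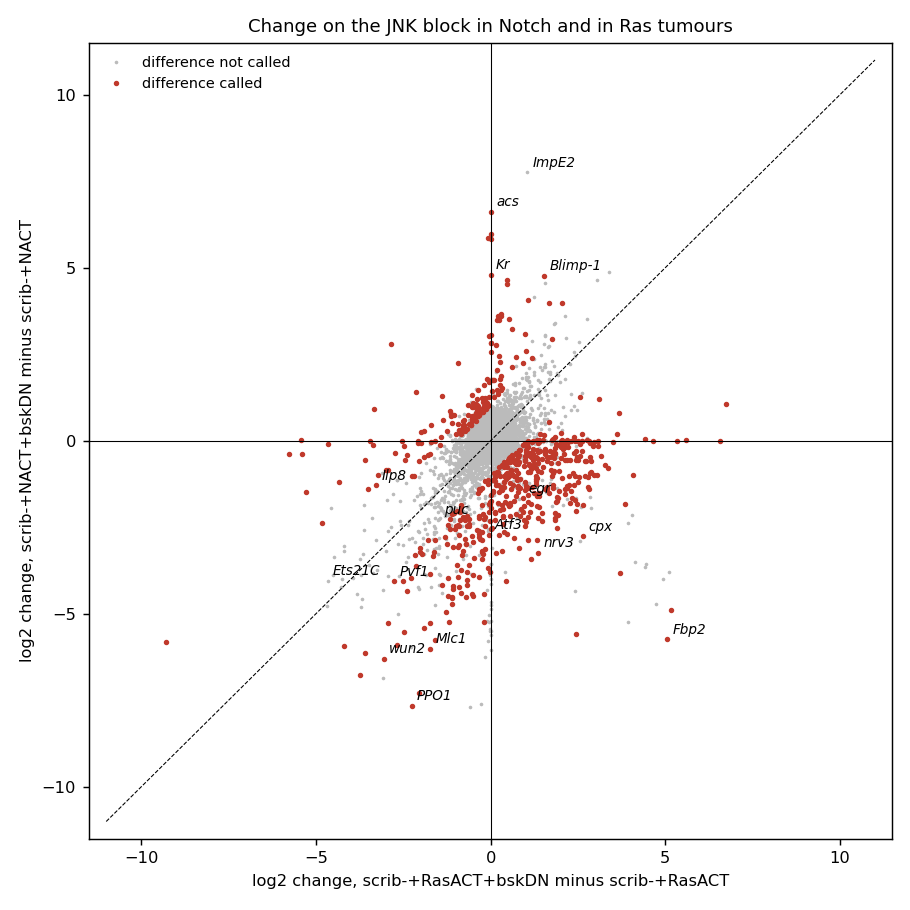
Log2 change with the JNK block in Notch tumours (vertical axis) against that in Ras tumours (horizontal axis) for 6550 genes that reached 5 log2 on an array; red points are genes whose difference was called and the dashed line marks equal change. puc and Ets21C fall in both tumours, while egr, cpx and nrv3 fall in the Notch tumours and have positive changes in the Ras tumours.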

How the data were processed

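RNA of whole eye-antennal discs was labelled as biotin cRNA and hybridised to Affymetrix Drosophila 2.0 arrays. The deposited values of the 21 arrays are log2 signals per probe set that the authors made with GCRMA, which corrects background from probe sequence, normalizes by quantiles and summarises probes. The GCRMA version, and which arrays were normalized together, are not given in the sources used here. Of 18952 probe sets, 183 AFFX controls and the 3 for bsk were left out, and 18766 were tested. Of those for bsk, 1 stayed near the floor (2.93, 2.22 and 2.20 log2 in scrib-+NACT+bskDN, against 2.20, 2.23 and 2.20 in scrib-+NACT). The others also detect the bskDN transgene. Probe sets were named from the platform annotation, with symbols updated through a RefSeq gene table. This gave 13644 probe sets with 1 symbol (13541 matched in RefSeq), 402 with several and 4720 with none, the last 2 kinds staying unnamed. A gene (11981 in all) was represented by its probe set with the highest mean.

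Groups were taken from the sample labels. The lmFit and eBayes functions of limma (version 3.58.1, R version 4.3.3) were used on the 12 arrays of scrib-+NACT+bskDN, scrib-+NACT, scrib-+RasACT+bskDN and scrib-+RasACT, which shared an estimate of the spread with 8 residual degrees of freedom. Calls needed a Benjamini-Hochberg adjusted p under 0.05 over all probe sets and an absolute change of more than 1 log2. Precision is limited by how few arrays each group has. The script was tested on simulated data. FRT control levels are descriptions. The genes named are scrib, every measured member of the JNK pathway and JNK response lists, the 15 largest falls and 15 largest rises among called genes whose groups do not overlap and whose higher mean is at least 6 log2, up to 5 called members of each other list, up to 4 members of each marker list, and the 8 largest differences from the Ras tumours in each direction. Other members of lists, called or not, are named as examples. They are outside the counts of named genes given for the alternatives. Members and lists were chosen with earlier results of these data known. Listed genes without a probe set carrying their name alone are not analysed here. Alternatives were other arrays in the fit, variance models, array weights, normalization, centring, a filter on values under 5 log2, replicate and label-kind blocks, a mean over probe sets of a gene, and leaving out each Notch tumour array. A count of promoter motifs was planned and not run.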

Additional observations from a re-analysis of the deposited data

Results flagged for a closer look

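The change of disc RNA with the JNK block differed between Notch and Ras tumours for 847 of 18766 probe sets (4.51%). This was the test of the difference itself (the interaction in limma). The part of cell composition in it was not tested. These changes are given as the Notch change minus the Ras change in log2. Among the pathway and response genes the difference was -2.58 for egr, -2.33 for Traf4, -2.02 for wgn, -1.08 for wnd, -2.68 for Atf3, -1.89 for Timp, -1.51 for scaf, -1.30 for Pvf1 and -1.02 for ftz-f1. It was positive for Ilp8 (1.99) and upd1 (2.09), whose downward changes were larger in the Ras tumours.

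The most negative differences were those of Fbp2 (-10.80), CG34166 (-10.07), CG43085 (-8.04), CG2233 (-7.53), CG15005 (-6.57), CG15756 (-5.67), CG2269 (-5.65) and Lip1 (-5.57). Fbp2, a fat body protein gene, stood at 5.92, 10.66 and 11.58 log2 in scrib-+RasACT+bskDN, against 4.50, 4.41 and 4.07 in scrib-+RasACT, so that replicate 1 lay apart from replicates 2 and 3. The calls of CG34166, CG43085 and CG2233 ended on leaving out any Notch tumour array but scrib-+NACT replicate 1 (adjusted p = 0.062 to 0.076, 0.055 to 0.064 and 0.095 to 0.12), and that of CG2233 also with quantile normalization (0.051), with a trended robust variance (0.054) and with the label kind as a block (0.073, and 0.0502 for CG34166). CG34166, at 6.15, 12.21 and 11.87 in scrib-+RasACT+bskDN, had the same replicate low. CG15005 was at 2.17 on all 6 Notch tumour arrays, so its difference comes from the Ras tumours alone (8.92, 9.06 and 8.25 in scrib-+RasACT+bskDN, against 2.17 on each scrib-+RasACT array).

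The most positive were those of acs (6.62), CG18765 (5.98), CG4576 (5.94), CG13840 (5.83), Lcp65Af (5.64), Cpr49Ad (5.45), Zip102B (5.39) and CG6753 (5.00). acs, CG18765 and CG13840 were near the floor on all 6 Ras tumour arrays. Single genes were not screened for arrays that lie apart, since each group has 3 arrays.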

How the results depend on the processing

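No result changed direction under any alternative that was run. For the JNK block in Notch tumours, the count of 1006 probe sets moved by less than 1.5 times under every alternative but the replicate block, and leaving out an array in turn gave 859 to 1182, with 949 of the 1006 called without scrib-+NACT replicate 1. For the difference from Ras tumours (847 probe sets, 229 higher), leaving out an array gave 670 to 999. Array weights gave 1291 with 374 higher, and a further quantile normalization gave 427 higher. The cause was not tested. The labels 1 and A occur in both Notch groups, but nothing says that they pair arrays, and residuals of same-labelled arrays correlated at 0.0255 and -0.0122. With the label as a replicate block, which leaves 4 residual degrees of freedom, 536 probe sets were called for the JNK block (384 lower, 152 higher) and 250 for the difference (185 lower, 65 higher).

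Of 111 named genes called, 64 were called with that block, 94 with the 6 Notch tumour arrays alone (Jra, kay, E(spl)m4-BFM, ImpE1, ImpE2, nvd, ro, sens, futsch and upd2 among the 17 lost), 95 to 104 on leaving out an array, and 104 to 111 with all 21 arrays, a trended robust variance, array weights, quantile normalization, centring, the filter or the label kind as a block. With the mean over a gene's probe sets, 143 of the 148 named genes stayed on the same side of the thresholds. Low signals limit the fold of genes near the floor, which depends on the background correction, and 265 of the 580 genes called lower had a mean under 5 log2 with the block.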

Other observations

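Families of genes with shared names, chosen after their values were seen, add to the lists. The Idgf genes code for secreted chitinase-like proteins. Of 6 measured, 4 were called lower with the block and none higher (median change -2.88), beside 4.84% of all genes lower. Idgf2 stood at 3.34, 3.46 and 3.38 log2 with the block, against 7.56, 8.79 and 8.71 in scrib-+NACT, Idgf3 changed by -4.20, Idgf4 by -2.79 and Idgf6 by -2.97. Haemocyte and fat body markers were low on the same arrays, and their part was not tested. Of 34 glutathione transferases 7 were lower and none higher. Of 83 cytochrome P450 genes 9 were lower and 1 was higher. Ribosomal protein genes moved little, with none of 41 cytoplasmic members lower and 1 higher (RpS5b), and none of 69 mitochondrial members called.

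On chromosome 4, 8 of 65 genes were called lower (12.3%) and 2 higher (3.08%), against 4.16% to 5.4% lower and 1.17% to 2.26% higher on the X and the other arms. This is a description of few genes.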
